A study of Saccharomyces cerevisiae with 8 samples.

Results

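The DNA damage and ribonucleotide reductase genes of budding yeast described here are *RNR1*, *RNR2*, *RNR3*, *RNR4*, *HUG1*, *DUN1*, *SML1*, *RAD54* and *DIN7*, 9 of the 6120 genes counted. They were chosen by name for their known roles, with earlier results of these data already known. All 9 passed the filter on low counts that left 5909 genes to test. Polyadenylated RNA was sequenced from 4 haploid strains with 2 libraries each, all in the W303a background and grown in SC medium to mid-log phase at 30°C, with no DNA damaging agent named in the labels. The *ubc9-6* strain has 2 copies of the mutant *ubc9-1* allele in tandem in place of *UBC9*, with the *TRP1* marker between them. Ubc9 is the enzyme that conjugates SUMO, a small protein modifier, to its targets. The Tfg1-K60,61R-HA strain carries Lys-to-Arg substitutions at 2 neighbouring positions of Tfg1, the large subunit of the transcription factor TFIIF, together with a C-terminal HA tag, a *K. lactis* *TRP1* marker and an unintended further substitution in Tfg1 that the study lists. The Tfg1-HA strain has the same tag and marker on unsubstituted Tfg1. The W303a parent is *MAT a*, has mutant alleles of *URA3*, *TRP1*, *LEU2*, *HIS3*, *ADE2* and *CAN1*, and has no tag. The *TRP1* marker is therefore in every strain but W303a, and its part in a comparison with W303a cannot be told apart from that of the mutation or tag.

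Ribonucleotide reductase makes the deoxyribonucleotides for DNA synthesis, from a large subunit (Rnr1, or the damage-induced Rnr3) and a small subunit made of Rnr2 and Rnr4. When DNA is damaged or replication stalls, the Mec1 and Rad53 kinases activate the Dun1 kinase, which leads to removal of the inhibitor Sml1 and relieves repression of *RNR2*, *RNR3*, *RNR4* and *HUG1* by Rfx1 (also called Crt1), a protein that binds X-box sites. *RNR1* is controlled mainly through the cell cycle factor MBF, which binds the MCB element. Transcript levels of several of these genes are widely used as readouts of the DNA damage response in yeast.

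All 9 genes lie in single coding exons that overlap no other annotated gene, so each gene's counts come from an interval of its own. In the sacCer3 build, which matches the reference annotation at each of them, *RNR1* (YER070W) lies on chromosome V at 298950 to 301616, *RNR2* (YJL026W) on chromosome X at 392404 to 393603, *RNR3* (YIL066C) on chromosome IX at 238099 to 240708 and *RNR4* (YGR180C) on chromosome VII at 855264 to 856301. *HUG1* (YML058W-A, chromosome XIII, 158760 to 158966) and *SML1* (YML058W, chromosome XIII, 159383 to 159697) are neighbours on the plus strand, 416 bp apart. *DUN1* (YDL101C) lies on chromosome IV at 280307 to 281848, *DIN7* (YDR263C) on the same chromosome at 994242 to 995534, and *RAD54* (YGL163C) on chromosome VII at 193707 to 196403. The closest relatives among the coding sequences are *RNR1* and *RNR3*, identical at 79% of 2293 aligned bases, and *RNR2* and *RNR4*, identical at 68% of 891 aligned bases. No member had a near-identical copy that could share its reads.

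The 500 bases before each start codon were searched on both strands for the MCB element (ACGCGT) and for the X-box half-site GTTGCC, and no match of one overlapped a match of the other. The MCB element was present in 5 of the 9 regions (*RNR1*, *RNR3*, *DUN1*, *RAD54* and *DIN7*), and in 325 of 6000 upstream regions of the same length (5.42%). The half-site was present in 5 of the 9 (*RNR1*, *RNR2*, *RNR3*, *RNR4* and *HUG1*), and in 821 of the 6000 (13.7%). *SML1* had neither sequence in this window. Both motifs were chosen from the known regulation of these genes, and a match is a description of the letters, not a measured binding site. The stretches that hold the matches are shown because the genes differ in which element they carry. They are written in the direction of the gene from the RefSeq sequence of the sacCer3 assembly, and capitals mark the MCB element or the half-site in either orientation (GTTGCC or GGCAAC). Those with the MCB element and no half-site are
DUN1 (chrIV:281994-282023, minus strand): ttacgtgacgcgACGCGTttgtttactttt
RAD54 (chrVII:196645-196859, minus strand): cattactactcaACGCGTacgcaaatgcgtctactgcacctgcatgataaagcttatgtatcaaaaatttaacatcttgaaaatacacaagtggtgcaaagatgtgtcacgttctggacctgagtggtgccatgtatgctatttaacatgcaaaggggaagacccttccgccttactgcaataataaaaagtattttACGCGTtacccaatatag
DIN7 (chrIV:995702-995731, minus strand): attaccattttgACGCGTtccgtgacacgt
Those with the half-site and no MCB element are
RNR2 (chrX:391916-392054, plus strand): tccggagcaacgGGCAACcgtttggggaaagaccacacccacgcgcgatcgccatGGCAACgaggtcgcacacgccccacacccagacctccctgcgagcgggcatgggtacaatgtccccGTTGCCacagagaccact
RNR4 (chrVII:856670-856699, minus strand): gggcgttgttgtGGCAACaccatcctcttt
HUG1 (chrXIII:158535-158611, plus strand): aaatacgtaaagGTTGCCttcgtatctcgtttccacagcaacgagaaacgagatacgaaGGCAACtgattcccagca
The *RNR3* stretch holds 1 of each, and the *RNR1* stretch holds the 4 MCB elements of that gene, whose half-site lies closer to the start codon, 169 to 164 bases before it.
RNR3 (chrIX:240878-240991, minus strand): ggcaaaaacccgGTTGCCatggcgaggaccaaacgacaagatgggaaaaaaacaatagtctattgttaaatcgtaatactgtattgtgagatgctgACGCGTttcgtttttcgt
RNR1 (chrV:298450-298661, plus strand): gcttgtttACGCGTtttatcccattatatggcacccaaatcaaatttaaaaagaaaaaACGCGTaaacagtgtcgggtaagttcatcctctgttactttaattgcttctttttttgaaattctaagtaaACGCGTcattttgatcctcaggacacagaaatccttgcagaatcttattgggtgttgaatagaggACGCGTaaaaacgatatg

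**Figure D1:**
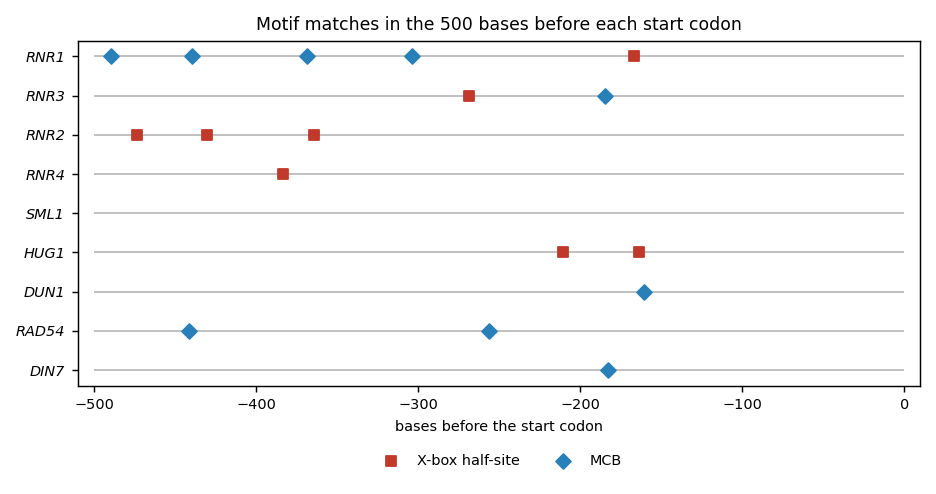
Positions of MCB elements (diamonds) and X-box half-sites (squares) in the 500 bases before each start codon, with the distance in bases on the x axis and 1 line per gene. *RNR1* has 4 MCB elements and *RNR2* has 3 half-sites, while *SML1* has no match.

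Levels are given as CPM, read counts scaled to library size after TMM normalization, which scales libraries to a common composition. They are shares of the mRNA pool, and a change in the number of cells in a state and a change in mRNA per cell cannot be told apart in bulk RNA. The libraries held between 26674458 and 34614232 counts, and even the rarest members were counted at least 100 times in each, between 102 and 408 counts for *HUG1* and between 181 and 654 counts for *RNR3*. *UBC9*, present in tandem copies in the mutant, was at 184 and 190 CPM in *ubc9-6* libraries, against 74.1 and 75.6 CPM in W303a libraries. Both *ubc9-6* libraries therefore match their label, while no RNA measurement here separates Tfg1-K60,61R-HA from Tfg1-HA, since the counts do not show base substitutions. The SD over genes of the replicates' log2 difference was 0.281 in Tfg1-K60,61R-HA, the widest, and 0.129 in *ubc9-6*, 0.164 in Tfg1-HA and 0.156 in W303a.

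Scaled by coding length, the 9 genes covered a wide range in W303a. *SML1* was highest at 1155 ± 4.30 CPM per kb (SD, n = 2, as for the following values), ahead of *RNR4* at 398 ± 13.1 and *RNR2* at 364 ± 16 CPM per kb, whose libraries did not overlap. *RNR1* followed at 157 ± 2.50 CPM per kb. *DUN1* was at 31.5 ± 0.0842, *HUG1* at 23.3 ± 0.0927, *RAD54* at 20.5 ± 0.250 and *DIN7* at 13.6 ± 0.0263 CPM per kb. *RNR3*, the large subunit gene that is induced by damage, was lowest at 2.76 ± 0.0130 CPM per kb. Both libraries of each gene lay above both of the next gene in this order.

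In *ubc9-6*, most of the 9 genes were higher than in W303a, while the main large subunit gene *RNR1* and the inhibitor gene *SML1* were not. By edgeR's quasi-likelihood test with Benjamini-Hochberg adjustment over all tested genes (a call means an adjusted p under 0.05), 6 of the 9 genes were higher, none was lower and 3 were not called. Of all 5909 genes, 20.8% were called in this comparison, 11.4% as higher. The libraries of the strains did not overlap for any of the 9 genes (7 higher and 2 lower in *ubc9-6*), where 71.4% of all genes did not overlap. The median log2 fold change was 0.52 for the 9 genes and 0.00 for all genes. The 9 genes were chosen with earlier results of these data known, so these contrasts with all genes only describe the set. For 1 gene alone, an exact two-sided permutation test of 2 libraries against 2 has a smallest p of 0.333, so the calls rest on the spread shared across genes and all 8 libraries.

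*RNR3* had the largest fold change of the 9 genes in *ubc9-6*. It was at 18.9 and 19.3 CPM in *ubc9-6* libraries, against 7.22 and 7.17 CPM in W303a libraries. Both mutant libraries lay far above both parental ones, and the replicates of each strain were nearly equal. The log2 fold change was 1.41 (SE 0.26), or 2.65-fold with a 95% confidence interval of 1.76 to 3.99, with an adjusted p of 0.00889 in edgeR's quasi-likelihood test. This call was lost when *ubc9-6* replicate 2, W303a replicate 1 or W303a replicate 2 was left out (edgeR adjusted p of 0.0609, 0.0746 and 0.0749), with log2 fold changes between 1.39 and 1.42 over all 4 such fits.

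The small subunit genes rose together in *ubc9-6*. *RNR2*, which codes for the subunit that holds the iron centre and tyrosyl radical, was at 625 and 628 CPM in *ubc9-6* libraries, against 451 and 424 CPM in W303a libraries. *RNR4*, whose product pairs with Rnr2, was at 675 and 690 CPM in *ubc9-6* libraries, against 423 and 403 CPM in W303a libraries. For both genes the strains were clearly apart, and the gap exceeded the difference between replicates. The log2 fold changes were 0.52 (SE 0.05) for *RNR2* and 0.72 (SE 0.08) for *RNR4*, with edgeR adjusted p of 0.000506 and 0.000942.

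*RNR1*, the gene for the large subunit used in normal growth, went slightly the other way. It was at 381 and 372 CPM in *ubc9-6* libraries, against 414 and 423 CPM in W303a libraries. The libraries of the strains did not overlap, but the log2 difference of -0.15 (SE 0.05) had an adjusted p of 0.0511 in edgeR's quasi-likelihood test. It was under 0.05 with DESeq2 (0.0410), with RLE normalization (0.0499) and where only these strains were fitted (0.0196). Its adjusted p lay between 0.0188 and 0.268 over 13 alternatives.

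Expressed per length, the balance of ribonucleotide reductase transcripts differed between the strains. *RNR3* made up 4.82% and 5.02% of large subunit mRNA in *ubc9-6* libraries, against 1.75% and 1.70% in W303a libraries. *RNR1* therefore still gave nearly all large subunit mRNA in *ubc9-6*. The ratio of small subunit mRNA (*RNR2* plus *RNR4*) to large subunit mRNA (*RNR1* plus *RNR3*) was 7.80 and 8.08 in *ubc9-6* libraries, against 4.96 and 4.59 in W303a libraries. *RNR4* mRNA exceeded *RNR2* mRNA 1.25- and 1.27-fold in *ubc9-6* libraries, against 1.08- and 1.10-fold in W303a libraries. In these 3 ratios the libraries of both strains were apart, and no test was run on them.

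*HUG1* codes for a small protein that binds and inhibits ribonucleotide reductase and is strongly induced by DNA damage. It was at 9.94 and 12 CPM in *ubc9-6* libraries, against 4.81 and 4.84 CPM in W303a libraries. Both mutant libraries were above both parental ones, by more than their own difference. The log2 fold change of 1.19 (SE 0.39), or 2.27-fold with a 95% confidence interval of 1.23 to 4.22, was not called (edgeR adjusted p of 0.0627). The spread of *HUG1* that entered this test includes the Tfg1-K60,61R-HA libraries, which were far apart for this gene. In a fit of the other 3 strains, chosen after the data had been seen, the log2 fold change was 1.18. The edgeR adjusted p of *HUG1* in that fit was 0.000491. Over 13 alternatives the adjusted p of *HUG1* lay between 8.04e-05 and 0.269.

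*SML1*, whose product binds Rnr1 and inhibits the enzyme until Dun1 acts on it, stood at 342 and 349 CPM in *ubc9-6* libraries, against 363 and 365 CPM in W303a libraries. The libraries did not overlap, but the log2 fold change of -0.08 (95% confidence interval -0.17 to 0.01) was not called, with an edgeR adjusted p of 0.201. *SML1* lies next to *HUG1* on the chromosome, and the log2 fold changes of these neighbours were -0.08 and 1.19.

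The kinase gene and the recombination and nuclease genes were also higher in *ubc9-6*. *DUN1* was at 71.1 and 72.8 CPM in *ubc9-6* libraries, against 48.7 and 48.5 CPM in W303a libraries. *RAD54*, which codes for a motor protein of homologous recombination, was at 73.8 and 74.1 CPM in *ubc9-6* libraries, against 54.7 and 55.7 CPM in W303a libraries. *DIN7*, a damage-inducible gene for a mitochondrial nuclease related to Exo1, was at 24.7 and 24.6 CPM in *ubc9-6* libraries, against 17.6 and 17.6 CPM in W303a libraries. For these 3 genes, replicates differed far less than the strains did. The log2 fold changes were 0.57 (SE 0.05) for *DUN1*, 0.42 (SE 0.05) for *RAD54* and 0.49 (SE 0.08) for *DIN7*, with edgeR adjusted p of 0.000188, 0.000777 and 0.00497. The calls of *RNR2*, *RNR4*, *DUN1*, *RAD54* and *DIN7* held in all 13 alternatives.

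**Figure D2:**
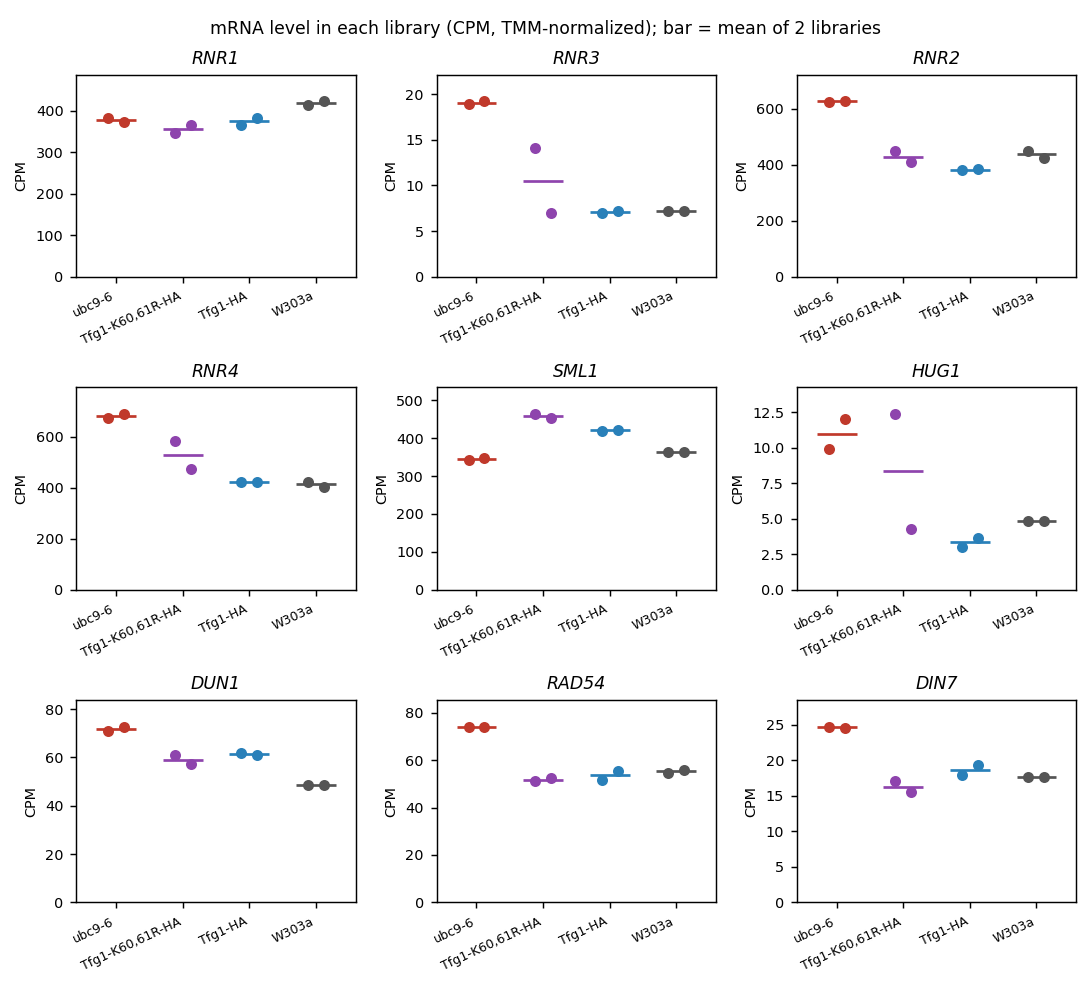
Level of each of the 9 genes in each library (points, CPM on a linear y axis that starts at 0) and the mean of the 2 libraries (bars), by strain. *RNR3*, *RNR2*, *RNR4*, *HUG1*, *DUN1*, *RAD54* and *DIN7* are higher in both *ubc9-6* libraries than in both W303a libraries, and the Tfg1-K60,61R-HA libraries are far apart for *RNR3* and *HUG1*.

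Genes with either motif were among those that were higher in *ubc9-6*. The genes with a half-site and no MCB element had log2 fold changes of 0.52 (*RNR2*), 0.72 (*RNR4*) and 1.19 (*HUG1*). Those with an MCB element and no half-site had 0.57 (*DUN1*), 0.42 (*RAD54*) and 0.49 (*DIN7*). The genes that hold both, *RNR3* and *RNR1*, had 1.41 and -0.15, the highest and the lowest of the 9, and *SML1*, with neither, had -0.08. No test was made of motif against change.

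Other genes of the damage response were called in *ubc9-6* at about the rate of all genes. Of 98 tested genes in 7 lists of checkpoint, ribonucleotide reductase regulation, repair and S-phase genes, 13 were higher and 2 lower than in W303a, where 20.8% of all genes were called and 11.4% were called as higher. Among 15 checkpoint genes only *MEC1*, the kinase at the head of the pathway, was called (log2 fold change of 0.23). Among 12 regulators of ribonucleotide reductase, *RFX1* (0.28), which codes for the X-box repressor itself, and *UBR2* (0.21) were called as higher.

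Most of the repair genes were not called. Of 16 homologous recombination genes, 4 were higher, among them *RDH54* (log2 fold change of 0.21), a *RAD54* relative, *DNA2* (0.17) and *SRS2* (0.15). Of 18 excision repair genes only the damage-inducible glycosylase gene *MAG1* (0.64) was called. Of 9 postreplication repair genes, the partners *UBC13* (0.38) and *MMS2* (0.21) were called, both as higher, and of 6 mismatch repair genes none was called. *PLM2* (0.87), a gene of the S-phase list, was also higher, as were the subunit genes of replication protein A *RFA3* (0.27) and *RFA2* (0.14), while the G1 cyclin genes *CLN2* and *CLN1* were lower (-0.29 and -0.28). The other 17 of the 22 S-phase genes, which include many MBF targets, were not called.

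General stress genes were mostly called as higher in *ubc9-6*, where 11.4% of all genes were. Of 13 such genes, 11 were higher and none lower in *ubc9-6* than in W303a, with a median log2 fold change of 1.00, led by *GRE1* (3.02), *HSP26* (2.83) and *DDR2* (2.62). Their part in the changes of the 9 genes was not tested. In Tfg1-HA against W303a, 12 of the same 13 were higher and *SPI1* was lower, with a median of 0.92. Of the 9 genes, *DUN1* and *SML1* were called as higher there (log2 fold changes of 0.33 and 0.21). *RNR1* and *RNR2* were called as lower (-0.16 and -0.19), and 5 were not called. Of all genes, 43.0% were called in Tfg1-HA against W303a, 21.5% as higher and 21.5% as lower.

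**Figure D3:**
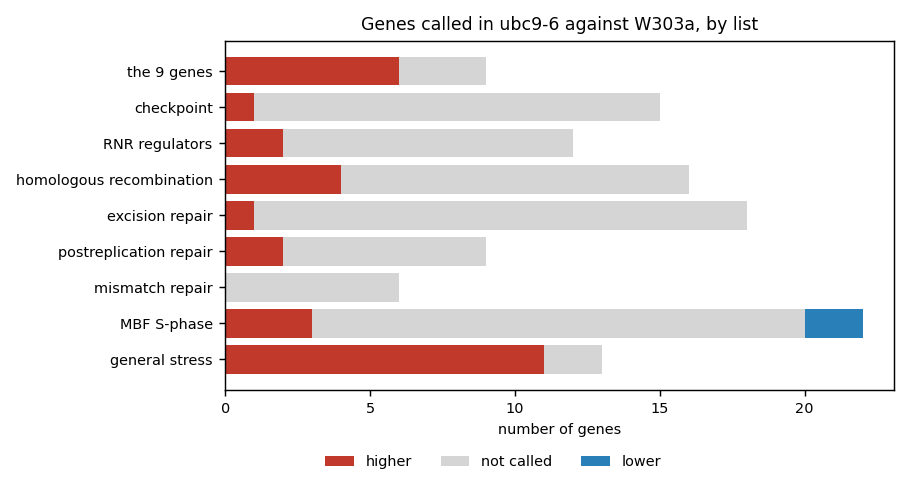
Number of genes called higher, not called and called lower in *ubc9-6* against W303a (edgeR adjusted p under 0.05), for the 9 genes and for each list, with the number of genes on the x axis. The bar of the 9 genes holds 6 higher, that of the general stress list 11 of 13, and that of the mismatch repair list none of 6.

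In Tfg1-K60,61R-HA against Tfg1-HA, the comparison that isolates the Tfg1 substitutions from the tag and marker, none of the 9 genes was called, and no gene of the 5909 was called either (0%). At an unadjusted p under 0.05 in edgeR, 5 of the 9 (*RNR2*, *RNR4*, *HUG1*, *SML1* and *DIN7*) and 9.68% of all genes passed. The libraries of the strains did not overlap for 6 of the 9 genes (4 with Tfg1-K60,61R-HA above Tfg1-HA and 2 with Tfg1-K60,61R-HA below), where 35.8% of all genes did not overlap. DESeq2 called 1 of the 9, *RNR4* (adjusted p of 0.00373), and gave an adjusted p for only 2 of them. The share of all genes that DESeq2 called is not given, so this count cannot be set against it. The median log2 fold change of the 9 was 0.12, and that of all genes was 0.00.

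The Tfg1-K60,61R-HA libraries disagreed on the genes that respond most to damage. *RNR3* was at 14.1 and 6.93 CPM in Tfg1-K60,61R-HA replicates 1 and 2, against 7.0 and 7.19 CPM in Tfg1-HA. *HUG1* was at 12.4 and 4.29 CPM in Tfg1-K60,61R-HA replicates 1 and 2, against 3.01 and 3.64 CPM in Tfg1-HA. Replicate 1 was above both *ubc9-6* libraries for *HUG1*, whereas replicate 2 was just below all Tfg1-HA and W303a libraries for *RNR3* and lay between those of Tfg1-HA and W303a for *HUG1*. The 2.03-fold and 2.89-fold gaps between these replicates ranked 50 (*RNR3*) and 21 (*HUG1*) by size among 5909 genes in this strain.

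*RNR4* and *RNR2* showed a smaller gap with the same replicate higher. *RNR4* was at 582 and 474 CPM in Tfg1-K60,61R-HA replicates 1 and 2, against 422 and 422 CPM in Tfg1-HA. *RNR2* was at 447 and 411 CPM in Tfg1-K60,61R-HA replicates 1 and 2, against 382 and 383 CPM in Tfg1-HA. Both Tfg1-K60,61R-HA libraries lay above both Tfg1-HA libraries for each gene. The log2 fold changes were 0.32 (SE 0.08) for *RNR4* and 0.17 (SE 0.05) for *RNR2*, both with an edgeR adjusted p of 0.446.

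The estimates for *RNR3* and *HUG1* depended on which Tfg1-K60,61R-HA library was used. With both Tfg1-K60,61R-HA libraries, the log2 fold changes over Tfg1-HA were 0.57 (SE 0.26, edgeR adjusted p of 0.521) for *RNR3* and 1.34 (SE 0.40, edgeR adjusted p of 0.446) for *HUG1*. Without replicate 1 they were -0.04 and 0.36, with *RNR4* at 0.17 and *RNR2* at 0.10. Without replicate 2 they were 0.99 and 1.89, with *RNR4* at 0.46 and *RNR2* at 0.22. In these fits the lone Tfg1-K60,61R-HA library was taken to vary like the other strains. The general stress list differed less between these replicates than *RNR3* and *HUG1* did. The log2 difference between Tfg1-K60,61R-HA replicates 1 and 2 had a median of 0.18 over its 13 genes and ran from -0.07 to 0.90. For *RNR3* it was 1.02, for *HUG1* 1.52 and for *RNR2* 0.12. Between *ubc9-6* replicates 1 and 2 the list had a median of -0.18, beside -0.03 for *RNR3*, -0.27 for *HUG1* and -0.01 for *RNR2*. The part of the list in the Tfg1-K60,61R-HA gap was not tested.

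**Figure D4:**
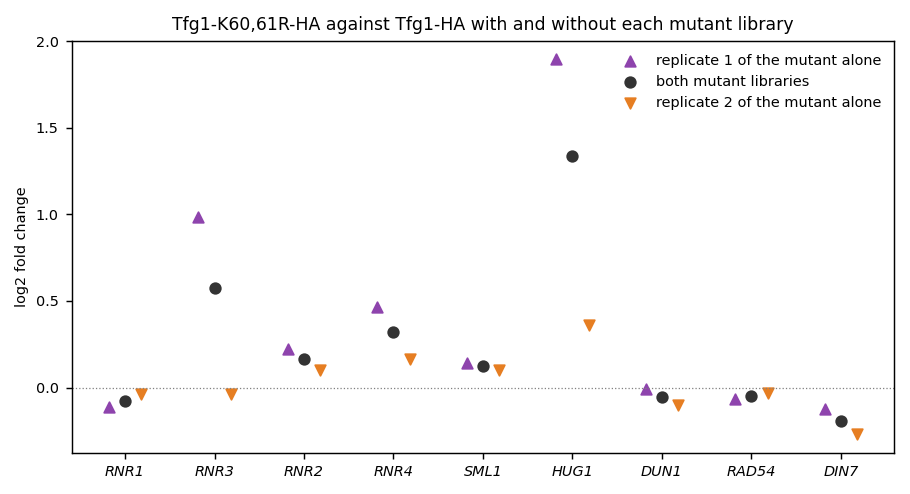
Log2 fold change of Tfg1-K60,61R-HA over Tfg1-HA for each of the 9 genes with both Tfg1-K60,61R-HA libraries (circles), with replicate 1 alone (upward triangles) and with replicate 2 alone (downward triangles). The estimates spread from -0.04 to 0.99 for *RNR3* and from 0.36 to 1.89 for *HUG1*.

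The remaining 5 genes differed between the Tfg1-K60,61R-HA replicates by 0.145 or less on the log2 scale, the largest of these differences being that of *DIN7*. *SML1* was at 465 and 452 CPM in Tfg1-K60,61R-HA, against 419 and 423 CPM in Tfg1-HA, a log2 fold change of 0.12 (edgeR adjusted p of 0.446). *DIN7* was at 17.1 and 15.5 CPM in Tfg1-K60,61R-HA, against 17.9 and 19.3 CPM in Tfg1-HA, a log2 fold change of -0.19 (edgeR adjusted p of 0.512). For these 2 genes the strains did not overlap, in opposite directions. *RNR1* was at 345.8 and 364.5 CPM in Tfg1-K60,61R-HA, against 365.5 and 382.5 CPM in Tfg1-HA, the highest Tfg1-K60,61R-HA value lying just under the lowest of Tfg1-HA. *DUN1* was at 61.1 and 57.2 CPM in Tfg1-K60,61R-HA, against 61.6 and 61.0 CPM in Tfg1-HA. *RAD54* was at 51.2 and 52.4 CPM in Tfg1-K60,61R-HA, against 51.7 and 55.4 CPM in Tfg1-HA. The strains overlapped for *DUN1* and *RAD54*, whose log2 fold changes had 95% confidence intervals of -0.16 to 0.05 and -0.16 to 0.06, and that of *RNR1* was -0.18 to 0.03.

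Tfg1-HA itself differed from W303a at some of the 9 genes, in both directions. In this comparison 2 were called as higher (*DUN1* and *SML1*), 2 as lower (*RNR1* and *RNR2*) and 5 were not called, where 43.0% of all genes were called, 21.5% as higher and 21.5% as lower. The strains did not overlap for 6 of the 9 genes (3 with Tfg1-HA above W303a and 3 with Tfg1-HA below), where 77.3% of all genes did not overlap. *DUN1* was at 61.6 and 61.0 CPM in Tfg1-HA libraries, against 48.7 and 48.5 CPM in W303a libraries. *SML1* was at 419 and 423 CPM in Tfg1-HA libraries, against 363 and 365 CPM in W303a libraries. For both genes the strains were well apart, with log2 fold changes of 0.33 (SE 0.05) and 0.21 (SE 0.04) and edgeR adjusted p of 0.000759 and 0.00352.

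The lower pair changed less. *RNR1* was at 365 and 382 CPM in Tfg1-HA libraries, against 414 and 423 CPM in W303a libraries, and *RNR2* was at 382 and 383 CPM in Tfg1-HA libraries, against 451 and 424 CPM in W303a libraries. Neither overlapped between strains. The log2 fold changes were -0.16 (SE 0.05) and -0.19 (SE 0.05), with edgeR adjusted p of 0.0221 and 0.0182. Without Tfg1-HA replicate 1 or W303a replicate 1 both calls were lost, leaving 2 of the 9 called. *RNR3* was at 7.0 and 7.19 CPM in Tfg1-HA libraries, against 7.22 and 7.17 CPM in W303a libraries, so that no difference could be seen. *HUG1* was at 3.01 and 3.64 CPM in Tfg1-HA libraries, against 4.81 and 4.84 CPM in W303a libraries, a log2 fold change of -0.54 that was not called with all strains in the fit (edgeR adjusted p of 0.328) and was called without the Tfg1-K60,61R-HA libraries (0.0181). *RNR4*, *RAD54* and *DIN7* had log2 fold changes of 0.03, -0.04 and 0.08 and were not called.

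**Figure D5:**
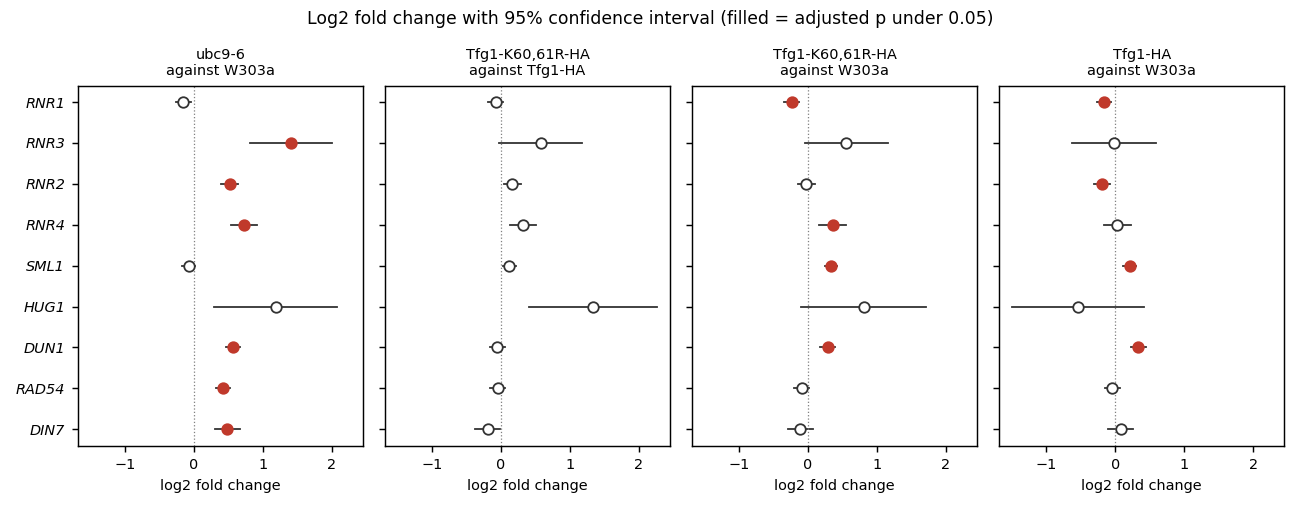
Log2 fold change (points) with its 95% confidence interval (lines) for the 9 genes in 4 comparisons, where filled points have an edgeR adjusted p under 0.05. In *ubc9-6* against W303a 6 points are filled, in Tfg1-K60,61R-HA against Tfg1-HA none, and the widest intervals belong to *HUG1* and *RNR3*.

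Against the untagged parent, Tfg1-K60,61R-HA had 3 of the 9 genes called as higher and 1 as lower, where 49.4% of all genes were called, 24.9% as higher and 24.5% as lower. The strains did not overlap for 6 of the 9 genes (3 with Tfg1-K60,61R-HA above W303a and 3 with Tfg1-K60,61R-HA below), where 74.3% of all genes did not overlap. *RNR4* was at 582 and 474 CPM in Tfg1-K60,61R-HA libraries, against 423 and 403 CPM in W303a libraries, a log2 fold change of 0.35 (SE 0.08, edgeR adjusted p of 0.00799) whose call was lost without W303a replicate 2 (0.0656). *SML1* and *DUN1* had log2 fold changes of 0.33 and 0.28, and *RNR1* had -0.24. *RNR3* and *HUG1* had log2 fold changes of 0.56 and 0.80, with Tfg1-K60,61R-HA libraries on both sides of the W303a libraries and edgeR adjusted p of 0.113 and 0.124. *RNR2*, *RAD54* and *DIN7* had log2 fold changes of -0.03, -0.09 and -0.11 and were not called. This comparison shares the W303a libraries with those of *ubc9-6* and Tfg1-HA, so the 3 are not independent of each other. Side by side, the log2 fold changes of *SML1*, *DUN1* and *RNR1* over W303a were 0.33, 0.28 and -0.24 in Tfg1-K60,61R-HA and 0.21, 0.33 and -0.16 in Tfg1-HA.

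Of the 12 regulators of ribonucleotide reductase, 3 were called as higher and 5 as lower than in W303a in Tfg1-K60,61R-HA, where 49.4% of all genes were called, and 2 as higher and 3 as lower in Tfg1-HA, where 43.0% were. *MUB1*, *CYC8* and *UBR2* were lower in both. *TUP1* was higher in both, with log2 fold changes of 0.22 in Tfg1-K60,61R-HA and 0.24 in Tfg1-HA. *WTM1*, whose product holds the small subunit in the nucleus, had log2 fold changes of 0.76 in Tfg1-K60,61R-HA and 0.53 in Tfg1-HA against W303a, with edgeR adjusted p of 0.000136 and 0.000874. *DIF1*, an *SML1*-related gene that acts in nuclear import of the small subunit, was higher in Tfg1-K60,61R-HA than in W303a (log2 fold change of 0.63, edgeR adjusted p of 0.00839). Its Tfg1-K60,61R-HA libraries were far apart, at 44.5 ± 12.2 CPM (SD, n = 2). Its levels were 37.2 ± 0.951 CPM in Tfg1-HA and 28.8 ± 0.766 CPM in W303a. These regulator genes were singled out after their values were seen. The genes that the fixed rule names in these comparisons were the stress genes *HSP26* (log2 fold change of 3.74 in Tfg1-K60,61R-HA and 3.32 in Tfg1-HA), *DDR2* (2.69 and 2.43) and *GPH1* (2.57 and 2.35), and, as lower, the polymerase subunit gene *REV7* (-0.71 and -0.50), the checkpoint adaptor gene *RAD9* (-0.60 and -0.48), and *ROX1* (-0.44) in Tfg1-K60,61R-HA and *SPI1* (-0.64) in Tfg1-HA.

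Tested against each other, the effect of *ubc9-6* (over W303a) and that of Tfg1-K60,61R-HA (over Tfg1-HA) differed at 4 of the 9 genes, in each more positive for *ubc9-6*, where 6.08% of all genes were called (3.22% in this direction). The difference of log2 fold changes was 0.35 (SE 0.07, edgeR adjusted p of 0.0325) for *RNR2*, 0.62 (SE 0.06, 0.00160) for *DUN1*, 0.47 (SE 0.07, 0.00621) for *RAD54* and 0.68 (SE 0.11, 0.0118) for *DIN7*. For *RNR3* it was 0.83 with a 95% confidence interval of -0.01 to 1.67 (edgeR adjusted p of 0.222), and for *HUG1* it was -0.15 with an interval of -1.44 to 1.13, so that both a larger and a smaller effect of *ubc9-6* lay inside these intervals. The *TRP1* marker sets *ubc9-6* apart from W303a but is shared by both Tfg1 strains, so its part in these differences cannot be told apart. Over W303a, Tfg1-HA itself had log2 fold changes of -0.19 (*RNR2*), 0.33 (*DUN1*), -0.04 (*RAD54*) and 0.08 (*DIN7*). Only the *DUN1* call was kept when W303a replicate 1 was left out.

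Beyond the named lists, the genes whose pattern over the 8 libraries was closest to *RNR3* and *HUG1* were searched by the root mean square difference of log2 CPM, each gene centred on its own mean. Of 656 genes with enough variation, the 5 closest to *RNR3* were *YDR034W-B* (0.161), *YFL019C* (0.202), *SPG1* (0.213), *HSP33* (0.230) and *YPR015C* (0.238). Of 446 genes, the 5 closest to *HUG1* were *SNZ1* (0.346), *YFL019C* (0.349), *YPR015C* (0.352), *HES1* (0.353) and *YDR034W-B* (0.381). Each of these 7 genes, like *RNR3* and *HUG1*, was higher in Tfg1-K60,61R-HA replicate 1 than in replicate 2, with 8.35 and 4.94 CPM for *YDR034W-B* and 105 and 31.3 CPM for *SNZ1*. Both replicates were among the libraries used to choose these genes, so this shared gap is no separate observation. The libraries differ in depth, and most of these genes were counted rarely, so the likeness is a description of 8 libraries and 4 strains.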

How the data were processed

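RNA-seq was made from 4 strains with 2 libraries each, per the labels from separate replicates. The p-values measure the spread between these libraries, which may be technical. The submitters' processing notes name HISAT2 2.1.0, featureCounts (Subread 2.0.0), edgeR 3.32.1 and sacCer3. The authors deposited whole-number counts of fragments per gene, without normalization and counted without strand, for 6120 genes, with each gene's exonic length in bases as another column deposited beside them. Deposited tables of the authors' own comparisons (fold changes, levels, test scores and p-values) were not used. ChIP-seq files were not used here.

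edgeR 4.0.16 in R 4.3.3 was used to fit a mean per strain over all 8 libraries (TMM normalization, the default filter on low counts, quasi-likelihood test, Benjamini-Hochberg adjustment over 5909 genes, threshold 0.05). Total counts per library were between 26674458 and 34614232. Levels are TMM-normalized CPM, and replicate differences and likeness use log2 CPM with a prior count of 2. Identities between coding sequences come from BLAST 2.17.0. The procedure was tested on simulated counts.

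The 9 genes, the lists, the motifs and the tests were chosen with earlier results of these data known. The genes named are the 9, *UBC9*, *TFG1* and *SMT3* as label checks, from the lists at most the 3 highest and 3 lowest called genes per comparison whose counts averaged 50 or more, and the 5 genes closest to *RNR3* and to *HUG1* among genes with at least 0.5 times the SD of that gene. Other list genes in the text were named after their values were seen. A list gene is not reported by name here. *TFG1* was lower than in W303a in Tfg1-K60,61R-HA (log2 fold change of -0.30) and in Tfg1-HA (-0.23), and *SMT3*, the SUMO gene, was at 0.05 in *ubc9-6* against W303a and was not called. The alternatives were edgeR's likelihood ratio test, DESeq2 1.42.0, RLE normalization, no filter, a minimum of 10 counts per library, a block for the replicate number, fits of only the strains compared, and leaving out each library. A crossed block and a fit of 3 strains were chosen later, with the data in view.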

Additional observations from a re-analysis of the deposited data

Results flagged for a closer look

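At 4 of the 9 genes the effect of *ubc9-6* (over W303a) and the effect of Tfg1-K60,61R-HA (over Tfg1-HA) differed by edgeR's quasi-likelihood test of the difference itself. The difference of log2 fold changes was 0.35 for *RNR2* (0.52 in *ubc9-6* and 0.17 in Tfg1-K60,61R-HA). It was 0.62 for *DUN1* (0.57 and -0.05), 0.47 for *RAD54* (0.42 and -0.05) and 0.68 for *DIN7* (0.49 and -0.19), each with the *ubc9-6* value before the Tfg1-K60,61R-HA value. W303a alone lacks the *TRP1* marker, so the marker's part in these differences cannot be told apart from that of *ubc9-6*. Of the 8 fits that left out 1 library, 6 lost the call of *RNR2*, 5 that of *DIN7*, 1 that of *RAD54* and none that of *DUN1*.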

How the results depend on the processing

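Of the values of single genes under all alternatives, 522 kept their direction and side of the threshold, 23 gained a call, 23 lost one and 10 changed sign. The count of called genes was 5 to 6 in *ubc9-6* against W303a, 2 to 3 in Tfg1-HA against W303a, 0 to 4 in Tfg1-K60,61R-HA against Tfg1-HA, 3 to 6 in Tfg1-K60,61R-HA against W303a and 1 to 6 for the difference of the effects when each library was left out in turn. In Tfg1-HA against W303a it was 2 without Tfg1-HA replicate 1 and 2 without W303a replicate 1, where the calls of *RNR1* and *RNR2* were lost. In Tfg1-K60,61R-HA against Tfg1-HA it was 1 with DESeq2 and 4 without Tfg1-K60,61R-HA replicate 2. For the difference of the effects it was 2 without *ubc9-6* replicate 1, *ubc9-6* replicate 2, Tfg1-HA replicate 2 or W303a replicate 2 (*DUN1* and *RAD54*), and 1 without W303a replicate 1 (*DUN1*). The cause was not tested. Some log2 fold changes took either sign when each library was left out in turn. In Tfg1-HA against W303a these ran from -0.039 to 0.0002 for *RNR3*, from -0.094 to 0.0047 for *RAD54* and from -0.0023 to 0.066 for *RNR4*. In Tfg1-K60,61R-HA against Tfg1-HA they ran from -0.036 to 0.99 for *RNR3* and from -0.097 to 0.0013 for *RAD54*. In Tfg1-K60,61R-HA against W303a they ran from -0.055 to 0.97 for *RNR3*, from -0.17 to 1.36 for *HUG1* and from -0.088 to 0.033 for *RNR2*, which was also at 0.020 without W303a replicate 1. The difference of the effects on *HUG1* ran from -0.71 to 0.82. For *RNR3*, *HUG1* and *RNR2* in Tfg1-K60,61R-HA, and for that difference, the ends of each range were the fits without Tfg1-K60,61R-HA replicate 1 and without Tfg1-K60,61R-HA replicate 2. With a replicate block the counts of called genes were 6, 4, 0, 4 and 4 in the 5 comparisons, as without it, and no call changed. Deviations of same-numbered libraries correlated only weakly, at -0.188 (*ubc9-6* and W303a), 0.0159 (Tfg1-HA and W303a), 0.118 (Tfg1-K60,61R-HA and Tfg1-HA) and 0.0443 (Tfg1-K60,61R-HA and W303a). The labels do not say whether same-numbered libraries were made together, and these correlations cannot settle it. With a crossed block, added after the data had been seen, the counts were 6, 4, 0, 4 and 3. In the fit of 3 strains, 8 genes were called in *ubc9-6* against W303a and 5 in Tfg1-HA against W303a. The share of all genes called is not given for any alternative, so these counts show only how the calls of the 9 genes moved. *HUG1* and *RNR3* had the widest confidence intervals of the 9. They had 102 to 654 counts, and their Tfg1-K60,61R-HA libraries, which enter the spread in every comparison, were far apart.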
